A study of Mus musculus with 22 samples.

Results

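The 4 Fos family loci were examined in ATAC-seq peak lists of mouse retinal endothelial cells. ATAC-seq uses the Tn5 transposase to cut and tag accessible DNA, and a peak is a stretch called as accessible. The members were the peaks whose midpoint lay in 1 of 4 windows of build mm9: Fos on chromosome 12 from 86.76 to 86.87 Mb, Fosb on chromosome 7 from 19.84 to 19.94 Mb, Fosl1 on chromosome 19 from 5.40 to 5.50 Mb and Fosl2 on chromosome 5 from 32.38 to 32.52 Mb. They numbered 81 of 49558 peaks on placed chromosomes in the gTKO list and 142 of 57267 in the control list.

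Pups of the gTKO group carried floxed S1pr1 and S1pr2 alleles, no functional S1pr3, and Rosa26-CreERT2. Control pups had the same 3 receptor alleles without the recombinase. The receptors bind sphingosine 1-phosphate, a lipid carried in blood. Both groups were on a C57BL/6 background, received 100 µg tamoxifen per injection from postnatal day 1 to 3 and were sampled on day 6, although the cell type entry of the labels also calls the cells adult. Rosa26 drives the recombinase in most cell types, so deletion was not limited to endothelium, and S1pr3 was missing in both groups. Each of the 3 libraries per group came from 5000 to 8000 sorted cells, taken from the pooled retinas of 4 to 6 pups. The endothelial identity of the cells was not checked against marker loci, since that needs an mm9 annotation. The 3 libraries of a group are represented by 1 peak list. There is thus no replicate error and no test between genotypes, and how deeply each list was sequenced is not known. A list made from fewer reads holds fewer and narrower peaks, and its part in the differences below was not tested. Shares are given with 95% binomial intervals by the exact Clopper-Pearson method. These treat peaks as independent and hold counting error alone.

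Fos proteins work as one arm of AP-1, a transcription factor in which a Fos protein pairs with a Jun protein through a leucine zipper and binds the sequence TGACTCA. Fos proteins do not form stable dimers with each other and depend on a Jun partner. Fos and Fosb are immediate early genes, which are transcribed within minutes of a stimulus, whereas Fosl1 and Fosl2, which encode Fra-1 and Fra-2, respond later and lack the strong activation domain of c-Fos. In endothelial cells AP-1 responds to growth factors, flow and inflammatory signals.

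The promoters of the genes are shown for the 3 members that matched the RefSeq promoter table of build GRCm38.p6. Each sequence is the 250 bases before the gene start, on the strand of the gene. Capitals mark matches to 3 motifs, searched on both strands. The TATA box was searched as TATAAA. The half-site of the cyclic AMP response element, bound by CREB proteins, was searched as TGACG. The GC box, bound by Sp1, was searched as GGGCGG. Distances run from the first base of the match to the gene start.
Fos, chr12:85473640-85473889, plus strand: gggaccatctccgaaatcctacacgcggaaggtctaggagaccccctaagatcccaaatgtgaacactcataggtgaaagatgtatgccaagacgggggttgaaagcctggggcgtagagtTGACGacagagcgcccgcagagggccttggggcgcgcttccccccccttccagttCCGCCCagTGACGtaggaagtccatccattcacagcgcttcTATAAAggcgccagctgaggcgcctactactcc
Fosb, chr7:19310046-19310295, minus strand: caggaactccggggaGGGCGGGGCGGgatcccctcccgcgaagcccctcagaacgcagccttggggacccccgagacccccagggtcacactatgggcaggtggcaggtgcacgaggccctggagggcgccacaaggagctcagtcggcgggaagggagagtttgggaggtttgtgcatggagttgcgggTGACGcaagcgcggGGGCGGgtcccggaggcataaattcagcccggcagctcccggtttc
Fosl2, chr5:32136222-32136471, plus strand: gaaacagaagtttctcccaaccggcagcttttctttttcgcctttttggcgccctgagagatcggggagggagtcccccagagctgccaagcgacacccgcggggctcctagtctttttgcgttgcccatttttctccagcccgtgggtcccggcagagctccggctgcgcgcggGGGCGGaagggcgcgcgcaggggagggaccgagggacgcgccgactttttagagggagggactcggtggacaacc
The Fos promoter held TATAAA 33 bases before the start and TGACG at 66 and 129 bases before it. The Fosb promoter held TGACG 60 bases before the start and no TATAAA. The Fosl2 promoter held neither, and 1 GC box. GGGCGG occurred once at Fos and 3 times at Fosb, where 2 of the matches shared a base. TATAAA was found in 12.4% of all 32851 promoters in the table, TGACG in 17.8%, GGGCGG in 32.7% and the AP-1 site TGACTCA, which none of the 3 held, in 4.46%. These sequences carry coordinates of another build than the peaks. No mm9 annotation was used here, so the genes were not placed within their windows and a peak is assigned to a window, not to a gene. In RefSeq the nearest coding genes are Tmed10 and Jdp2 beside Fos, Rtn2 and Ercc1 beside Fosb, AI837181 and Ccdc85b beside Fosl1, and Babam2 and Plb1 beside Fosl2. Jdp2 encodes a partner of Jun proteins.

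Fewer peaks and less covered sequence were found in the gTKO list at each of the 4 loci, although at Fosl1 the lists held 14 peaks each when only peaks of at least 300 bp were kept. The gTKO list also held fewer peaks over all placed chromosomes, at 86.5% of the control number. This share was 80.0% at Fos, 71.1% at Fosb, 81.8% at Fosl1 and 22.0% at Fosl2. Together the loci held 81 gTKO and 142 control peaks, which covered 45.3 kb and 95.4 kb. The gTKO coverage was 47.5% of the control coverage, against 77.1% over all placed chromosomes. Of the gTKO bases 97.2% lay inside control peaks, beside 92.8% over all placed chromosomes. Of the gTKO peaks 1 (1.23%, interval 0.0313 to 6.69%) had no control partner, and of the control peaks 83 (58.5%, interval 49.9 to 66.7%) had no gTKO partner. Over all placed chromosomes these shares were 9.75% and 27.0%. A partner here is a peak of the other list that overlaps by at least 1 bp.

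**Figure D1:**
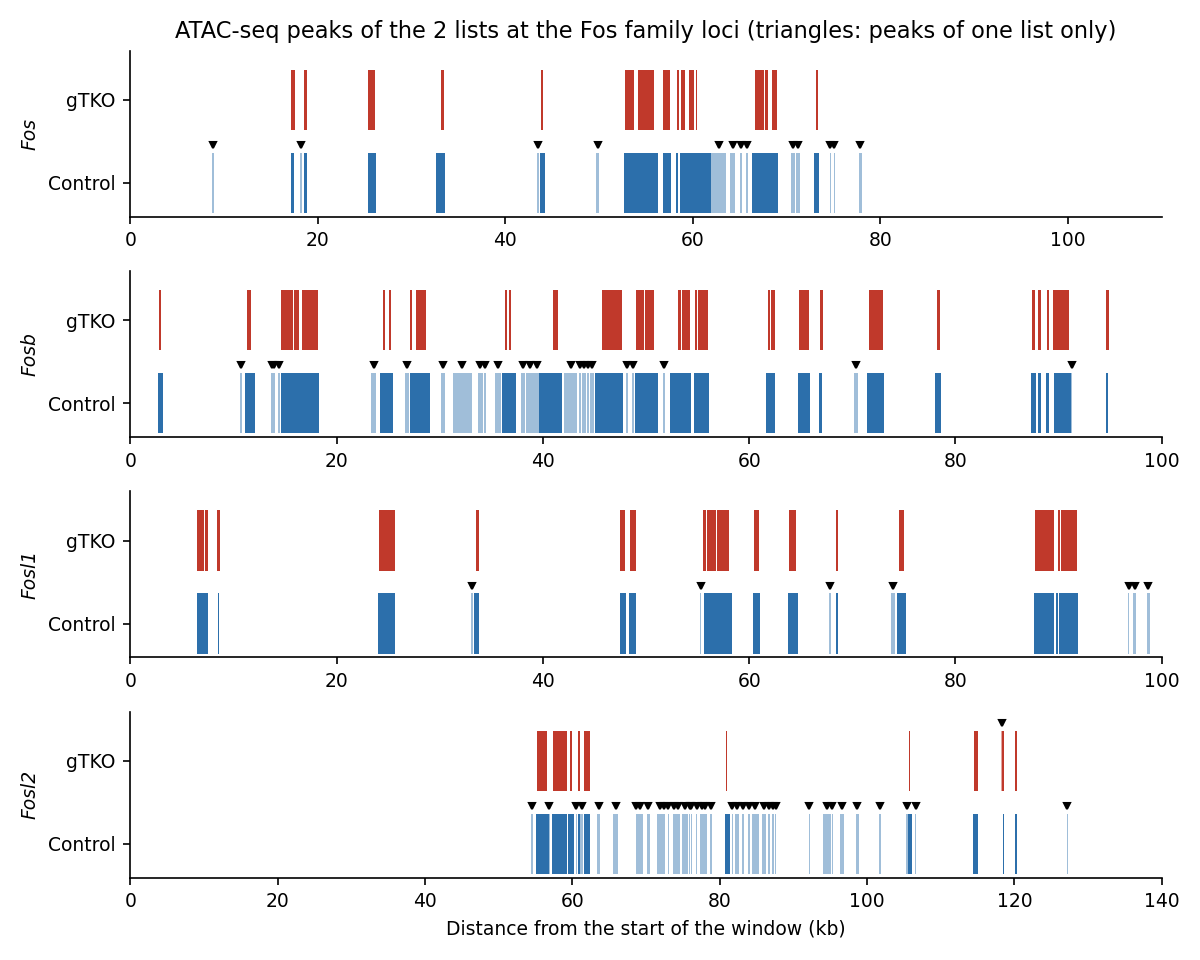
Position of each peak in kb from the start of its window (x axis), with the gTKO list above the control list for Fos, Fosb, Fosl1 and Fosl2. Pale bars under a triangle are peaks of one list only; 39 of the 50 control peaks at Fosl2 are of this kind.

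The loci differed in how much was missing from the gTKO list. At Fosl1, 18 gTKO and 22 control peaks covered 11.8 kb and 15.8 kb, so that the gTKO coverage was 75.1% of that in control, close to the 77.1% over all placed chromosomes. At Fos, 20 gTKO and 25 control peaks covered 9.03 kb and 18.9 kb, or 47.7%. At Fosb, 32 gTKO and 45 control peaks covered 18.3 kb and 37.9 kb, or 48.2%. Fos and Fosb thus kept a similar share of covered sequence. Fosl2 kept the least of the 4, with 11 gTKO and 50 control peaks covering 6.08 kb and 22.7 kb, or 26.8%. The control list covered 37.9% of the Fosb window and 15.8 to 17.2% of the others, whereas the gTKO list covered 18.3% of the Fosb window and 4.34 to 11.8% of the others.

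**Figure D2:**
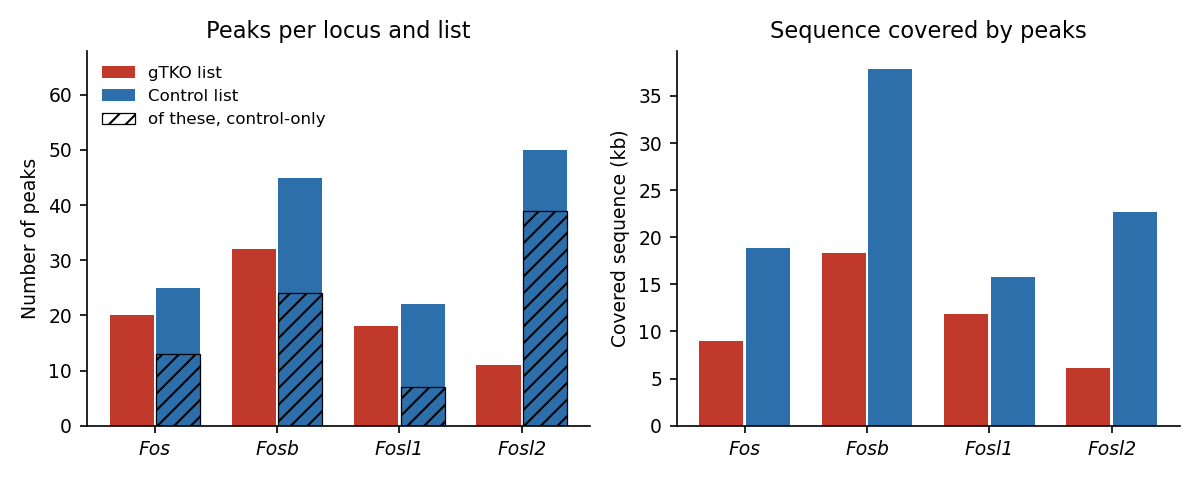
Number of peaks (left) and sequence covered in kb (right) per locus in the gTKO and control lists. Hatching marks control-only peaks, 13 at Fos, 24 at Fosb, 7 at Fosl1 and 39 at Fosl2; there is 1 list per genotype and so no error bar.

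At Fos 4 of the 5 control peaks of 1 kb or more had gTKO partners that were narrower or in pieces, and the other one, of 1608 bp, had no partner. The widest gTKO peak, chr12:86814090-86815837, measured 1748 bp against 2203 bp for its control partner, chr12:86814079-86816281. Both began at nearly the same position, and the difference lay at the far end. The widest control peak, chr12:86818662-86821932 (3271 bp), was matched by 4 gTKO peaks of 150 to 462 bp that covered 1189 bp, or 36.3% of it. The control peak at chr12:86826280-86829111 (2832 bp) was matched by 3 gTKO peaks that covered 1854 bp, or 65.5%. Between these 2 wide control peaks the gTKO list was empty. The control list held a run of 4 control-only peaks there, from chr12:86821945 to 86825823, that included peaks of 1608 bp (chr12:86821945-86823552) and 536 bp (chr12:86823994-86824529). The widest of them lay 1498 bp from the nearest gTKO peak. Further along, chr12:86830460-86830858 (399 bp) and chr12:86830949-86831470 (522 bp) were also control-only.

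The smaller Fos peaks showed the same direction, with 2 exceptions. Of 3 other control peaks that fell into 2 gTKO pieces each, 81.5% of the 865 bp at chr12:86785326-86786190 was covered, 36.3% of the 932 bp at chr12:86792593-86793524 and 80.3% of the 775 bp at chr12:86816854-86817628. The pair at chr12:86803704-86804236 measured 261 bp in gTKO and 533 bp in control. That at chr12:86832953-86833482 measured 217 bp in gTKO and 530 bp in control. The exceptions were a peak of 466 bp in gTKO against 301 bp in control (chr12:86777123-86777423 in control) and one of 257 bp against 220 bp (chr12:86818195-86818414 in control). In all, 13 of 25 control peaks at Fos had no partner (52.0%, interval 31.3 to 72.2%), beside 27.0% over all placed control peaks. None of the 20 gTKO peaks lacked one, which allows 15.0% by 3 counts over the total (exact upper limit 16.8%). Over all placed gTKO peaks 9.75% lacked one.

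Fosb had the densest accessibility of the 4 loci, with 15 control peaks of 1 kb or more against 6 in the gTKO list. Its control-only peaks were concentrated in the middle of the window. From chr7:19870082 to 19884948, a stretch of 14.9 kb, the gTKO list held 3 peaks with 908 bp and the control list 15 peaks with 11049 bp. Within it lay a control-only peak of 1857 bp (chr7:19871276-19873132), which was 2586 bp from the nearest gTKO peak, and one of 1179 bp (chr7:19882090-19883268). The control peak of 2195 bp at chr7:19879612-19881806 was matched there by a single gTKO peak of 496 bp, a ratio of 0.226. The control peak of 1408 bp at chr7:19876023-19877430 was matched by 2 gTKO peaks that covered 29.3% of it. Its limits were set with the values in view.

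On either side of that stretch Fosb kept more. The widest control peak, chr7:19854592-19858245 (3654 bp), was matched by 3 gTKO peaks that covered 87.8% of it. The widest gTKO peak, chr7:19885753-19887432 (1680 bp), lay with a second one inside the control peak chr7:19885061-19887809 (2749 bp), of which they covered 69.8%. Coverage was 72.8% for chr7:19888884-19891117 (2234 bp), 52.2% for chr7:19892361-19894398 (2038 bp) and 86.7% for chr7:19894635-19896135 (1501 bp). It was 54.8% for chr7:19867072-19869095 (2024 bp) and 33.2% for chr7:19864254-19865479 (1226 bp). A control peak in several gTKO pieces was thus found at 9 of 45 control peaks at this locus, beside 5.28% of all placed control peaks. These 9 measured 882 bp or more, and the shares were not compared by width. Control peaks of 1 kb or more numbered 15 of 45 at Fosb, against 8738 of 57267 on placed chromosomes. Those in several gTKO pieces numbered 5 of 25 at Fos, 4 of 22 at Fosl1 and 0 of 50 at Fosl2. Of the control peaks at Fosb 24 were control-only (53.3%, interval 37.9 to 68.3%), beside 27.0% over all placed control peaks. Of the 32 gTKO peaks 0 lacked a partner, beside 9.75% over all placed gTKO peaks. This allows up to 9.38% by 3 counts (exact upper limit 10.9%). A further 17 peaks at Fosb met the rule for naming and were narrower, at most 1033 bp.

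Fosl1 differed least between the lists. Its widest control peak, chr19:5455926-5458354 (2429 bp), was matched by 2 gTKO peaks covering 80.8% of it. The adjacent wide control peaks chr19:5487585-5489594 (2010 bp) and chr19:5490050-5491856 (1807 bp) were covered to 89.3% and 88.4%, and chr19:5406422-5407506 (1085 bp) to 82.6%. A gTKO peak of 194 bp at chr19:5489921-5490114 overlapped 2 control peaks, the narrower (155 bp) by 1 bp only. Control peaks covered 34.0% of it. The widest gTKO peak, chr19:5424111-5425672, measured 1562 bp against 1660 bp in control. No wide accessible peak was therefore missing from the gTKO list at Fosl1. All 7 control-only peaks (31.8%, interval 13.9 to 54.9%, beside 27.0% over all placed control peaks) were at most 351 bp wide. The 3 of at least 300 bp were chr19:5473792-5474110 (319 bp), chr19:5497200-5497547 (348 bp) and chr19:5498532-5498882 (351 bp). Of the 18 gTKO peaks 0 lacked a partner, beside 9.75% over all placed gTKO peaks. This allows up to 16.7% by 3 counts (exact upper limit 18.5%). The clearest narrowing was at chr19:5474335-5475178, with 479 bp in gTKO and 844 bp in control, and the clearest widening at chr19:5408461-5408611, with 281 bp in gTKO and 151 bp in control.

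At Fosl2 the wide peaks of a first group were found in both lists, and a long second group was found almost only in the control list. Of the 10 control peaks of the first group, 4 of 150 to 376 bp had no partner. The widest peak of each list was the same one, at 1925 bp in gTKO (chr5:32437307-32439231) and 2028 bp in control (chr5:32437286-32439313). Beside it, a gTKO peak of 1457 bp (chr5:32435135-32436591) overlapped control peaks of 1435 bp and 205 bp, the narrower by only 13 bp. A gTKO peak that overlapped 2 or more control peaks occurred here and once at Fosl1, and made up 1.07% of all placed gTKO peaks. The widest peaks of this first group were thus called in both lists at similar widths. Its control peak of 838 bp was not, with 170 bp in gTKO. From chr5:32443376 to 32485557, a stretch of 42.2 kb also delimited with the values in view, the gTKO list held 1 peak of 165 bp and the control list 34 peaks with 14068 bp. That gTKO peak overlapped a control peak of 732 bp (chr5:32460655-32461386). The remaining 33 control peaks had no partner and formed runs of 17 and 16 neighbours.

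The control-only peaks of Fosl2 were not all narrow. They had a median width of 277 bp, against 194 bp for all placed control-only peaks, and 17 measured at least 300 bp. The median was higher at Fosb, at 321 bp, and lower at Fosl1 (198 bp) and Fos (184 bp). The widest at Fosl2 were chr5:32473989-32475127 (1139 bp), chr5:32464333-32465370 (1038 bp), chr5:32451445-32452312 (868 bp) and chr5:32454871-32455738 (868 bp). These 4 lay 3289 to 10510 bp from the nearest gTKO peak. Others were chr5:32448794-32449553 (760 bp), chr5:32445547-32446207 (661 bp) and chr5:32462011-32462664 (654 bp). Within the first group, the control peak of 838 bp at chr5:32439420-32440257 was matched by a gTKO peak of 170 bp, a ratio of 0.203. Directly beyond the runs, the control peak at chr5:32485583-32486115 (533 bp) was matched by a gTKO peak of 195 bp, a ratio of 0.366. Further along, peaks found in both lists were closer in width. They measured 607 bp in gTKO against 637 bp in control at chr5:32494412-32495048 and 305 bp against 387 bp at chr5:32500021-32500407. At chr5:32498423-32498631 they measured 173 bp against 209 bp. Control-only peaks numbered 39 of 50 (78.0%, interval 64.0 to 88.5%), beside 27.0% over all placed control peaks. The single gTKO-only peak of the 4 loci, chr5:32498190-32498340 (151 bp), lay 82 bp from a control peak. In the 50 kb on each side of the Fosl2 window the gTKO list held 1 peak of 196 bp and the control list 0.

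Where a peak was matched 1 to 1, it was mostly narrower in the gTKO list, as was the case across the genome. Of 38 such pairs, the gTKO peak was narrower in 32 and wider in 6. Among all placed pairs it was narrower in 79.5% and wider in 19.9%. Counting differences of at least 25% of the narrower peak, 20 of the 38 pairs were narrower in gTKO and 3 were wider, beside 36.6% and 6.21% of all 37878 placed pairs. The median ratio of gTKO to control width was 0.793 at Fos (7 pairs), 0.778 at Fosb (12 pairs), 0.835 at Fosl1 (10 pairs) and 0.788 at Fosl2 (9 pairs), against 0.866 over all placed pairs. At Fosl2 all 9 pairs were narrower in gTKO. The ratios ranged from 0.203 to 0.953 at Fosl2, from 0.226 to 2.0 at Fosb, from 0.409 to 1.548 at Fos and from 0.568 to 1.861 at Fosl1.

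**Figure D3:**
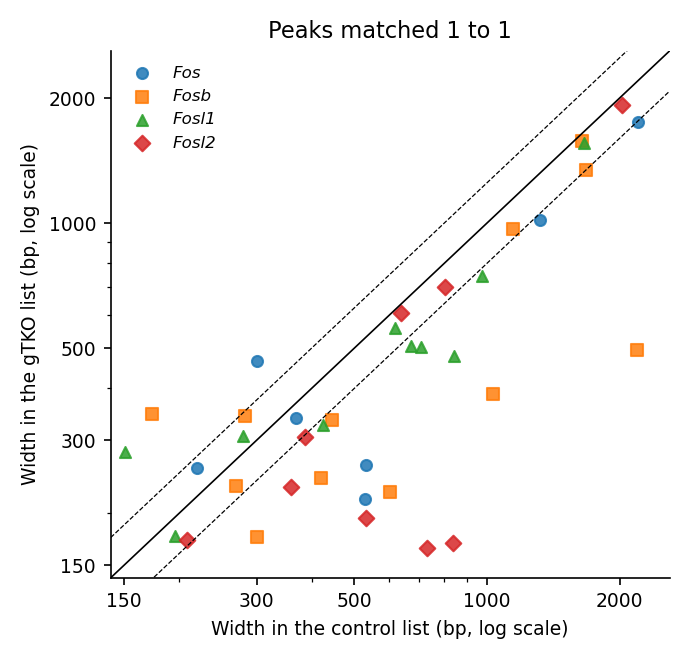
Width in the gTKO list (y axis, bp) against width in the control list (x axis, bp) for the 38 peaks matched 1 to 1, on log scales. The solid line marks equal width and the dashed lines a difference of 25% either way; 32 points lie below the solid line.

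The share of control-only peaks summed over the 4 loci was higher than in the whole list within each class of width. In the whole list narrow peaks lacked a partner more often, so the classes were compared separately. Of control peaks under 300 bp, 46 of 56 at the loci were control-only (82.1%, interval 69.6 to 91.1%), beside 52.5% of all. Fosl1 alone had 4 of 8 (50.0%, interval 15.7 to 84.3%). Of those of at least 300 and under 500 bp, 22 of 30 were control-only (73.3%, interval 54.1 to 87.7%), beside 19.1%. Of those of 500 bp and over, 15 of 56 were control-only (26.8%, interval 15.8 to 40.3%), beside 2.37%. Of those of 1 kb or more, 5 of 29 were control-only, beside 0.469%. The loci did not contribute alike to the class of 500 bp and over, with 8 of 15 at Fosl2, 4 of 19 at Fosb, 3 of 12 at Fos and 0 of 10 at Fosl1. With the shares of the whole list in 5 width classes, the peaks of the loci would hold 6.7 control-only peaks at Fos (observed 13), 10.4 at Fosb (observed 24), 6.0 at Fosl1 (observed 7) and 15.4 at Fosl2 (observed 39).

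**Figure D4:**
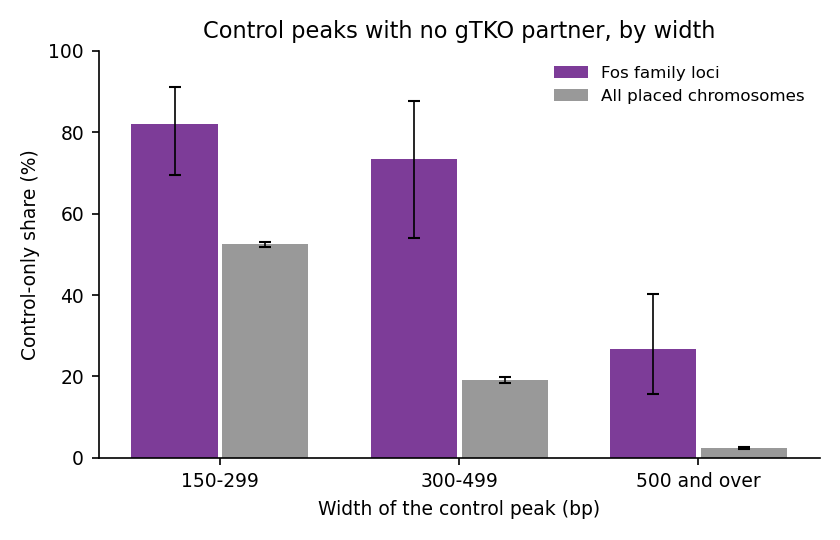
Share of control peaks with no gTKO partner (y axis, %) by width of the control peak (x axis, bp) at the Fos family loci and over all placed chromosomes. Error bars are exact 95% binomial intervals. The sum over the 4 loci is higher in each class, at 82.1%, 73.3% and 26.8%. Fosl1 alone is not higher under 300 bp (50.0%) or at 500 bp and over (0 of 10).

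The loci also lie where control peaks are dense. Windows at least as dense as each locus had a higher median control-only share than windows with 10 or more control peaks. Placed chromosomes were divided into adjoining windows as long as each locus, and those with 10 or more control peaks were ranked. A control-only share at least as high was found in 8.66% of 1408 windows for Fos, 9.18% of 1297 for Fosb, 35.1% of 1297 for Fosl1 and 0.486% of 1645 for Fosl2, where the median window had 25.0 to 26.7%. A ratio of gTKO to control coverage at least as low was found in 3.98%, 5.01%, 53.0% and 0.547% of these windows, in the same order of loci. Among windows with at least as many control peaks as the locus, the median control-only share was 44.3% for Fos (108 windows), 53.7% for Fosb (14 windows), 40.9% for Fosl1 (143 windows) and 50.5% for Fosl2 (10 windows). Beside these dense windows, Fos (52.0%) was somewhat above the median, Fosb (53.3%) at it and Fosl1 (31.8%) below it. A share at least as high as at the locus was reached in 36.1% of these windows for Fos, 50.0% for Fosb, 65.7% for Fosl1 and 10.0% (1 of 10 windows) for Fosl2, where it was 78.0%. The windows include those that overlap the loci, and their shares at this density ranged from 3.12 to 100% over the 4 comparisons. The part of density in the values of the loci was not tested further.

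Among runs of neighbouring control-only peaks that lay wholly inside a window, those of Fosl2 were longer than at the other 3 loci. The longest such run had 3 peaks at Fosl1, 4 at Fos and 5 at Fosb, where a second run of 5 was found. The last control-only peaks at Fos, from chr12:86834592 to 86838004, belong to a run that crosses the window edge. That run was left out and its length is not given. Of the 10342 runs on placed chromosomes 7421 were single peaks, 9.92% had 3 peaks or more, 4.18% had 4 or more and 2.13% had 5 or more. The loci lie where control peaks are dense, and run lengths were not compared among windows of like density. The 2 runs of Fosl2, with 17 and 16 peaks, extended over 15.5 kb and 23.9 kb and had 6827 bp and 6509 bp of covered sequence. Only 8 runs in the series had 17 peaks or more and 12 had 16 or more, including these. The Fosl2 runs contained no gTKO peak and 10 and 6 peaks of at least 300 bp.

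**Figure D5:**
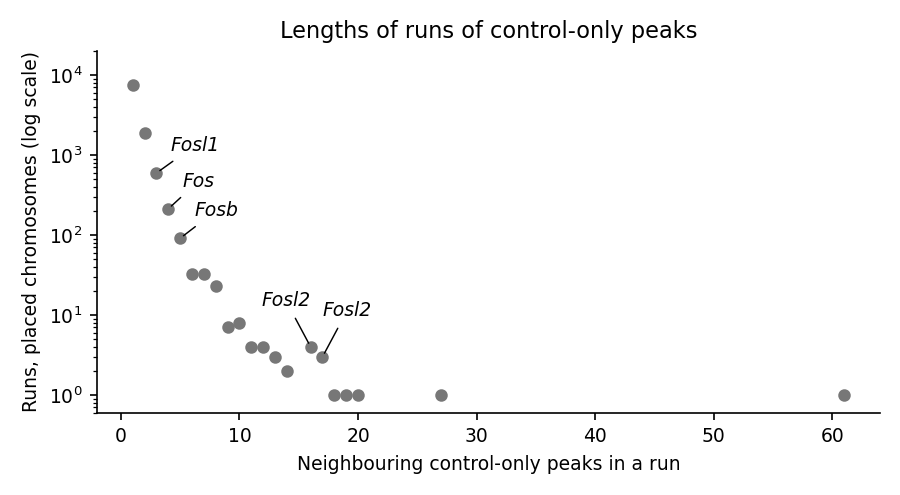
Number of runs on placed chromosomes (y axis, log scale) by the number of neighbouring control-only peaks in the run (x axis). Labels mark the longest runs wholly inside the window at Fosl1 (3), Fos (4), Fosb (5) and Fosl2 (16 and 17). A run that crosses the edge of the Fos window is not labelled.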

How the data were processed

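The authors deposited 1 list of ATAC-seq peak positions per genotype, which the labels of its 3 libraries name, with sequence name, start and end (positions in bp, with no score or other value). The submitters' processing notes give mm9 as the build and name MACS2, Bowtie2, Picard and bedtools, among others, without settings. Pooling of reads, calling threshold and depth: not given in the sources used here. The narrowest peak in either list is 150 bp.

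Starts were converted to 1-based positions. Peaks on chromosomes 1 to 19, X and Y were used, which left out 620 gTKO and 1044 control peaks. Partners overlapped by at least 1 bp. A pair was 1 to 1 where each peak had 1 partner, and a difference of at least 25% of the narrower width counted as a change. By rule, the widest peak of each list, one-list peaks of at least 300 bp, split peaks and pairs with a ratio of at least 1.5 are named, the 12 widest at most per locus. Other peaks named were chosen after their values were seen. Members, windows and rules were chosen with earlier results of these data known. Runs, width mixes and dense windows were added after the lists were seen. The overlap and pairing procedure was tested on simulated data. Peaks at gene starts, motifs in peaks, marker loci and other AP-1 genes need an mm9 annotation and were not analysed here, and neither were the 16 RNA-seq libraries. Calculations used Python 3.11.15 and scipy 1.17.1, and figures matplotlib 3.10.9.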

Additional observations from a re-analysis of the deposited data

How the results depend on the processing

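The control list had more peaks, more covered sequence and more one-list peaks than the gTKO list, and pairs narrower in gTKO outnumbered wider ones, in the totals under every alternative that was run. The Fosl2 locus gave the largest part of the one-list peaks: without it the totals were 0 gTKO-only and 44 control-only peaks, with 92 control peaks. Without Fosb, 49 gTKO peaks remained, with 26944 bp covered in gTKO and 57411 bp in control. Keeping peaks of at least 300 bp in both lists left 48 gTKO and 86 control peaks, of which 3 gTKO and 49 control peaks were one-list, and 1 pair wider in gTKO. That setting loses narrower partners. Counting one-list peaks of at least 300 bp with partners of any width gave 0 in gTKO and 37 in control. gTKO-only peaks numbered 2 with windows widened by 50 kb, 2 with 50% of the peak covered and 0 with partners within 200 bp. They numbered 45 with 50% reciprocal overlap, which by construction also counts the pieces of split peaks. By any difference in width, 32 pairs were narrower and 6 wider in gTKO. By a ratio of at least 1.5, 12 were narrower. With windows narrowed by 20 kb, 0 pairs were wider. The locus values taken singly changed by more than 1.5 times in 49 of 200 recomputed values, and in none did the direction reverse. At Fosl1 it was lost in 2 settings: with peaks of at least 300 bp both lists held 14 peaks, and with a ratio of at least 1.5 there was 1 narrower and 1 wider pair. No paired analysis was possible because the 3 libraries of a genotype share 1 list, and for that reason no library was left out. Distances to gene starts were not computed. Depth is not known, and its effect was not tested.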
